A study of Mus musculus with 40 samples.

Results

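The 10 genes described here encode interferon-inducible GTPases of the mouse: 5 guanylate-binding proteins (GBPs; Gbp2, Gbp2b, Gbp3, Gbp5 and Gbp7) and 5 immunity-related GTPases (IRGs; Igtp, Irgm1, Irgm2, Iigp1 and Tgtp2). They were chosen by name, with earlier results of these data known, as 10 of the 55359 Ensembl gene identifiers in the count files. All 10 were among the 17345 genes with enough reads to be tested. Bulk RNA was sequenced from the right kidney of 40 male C57BL/6 mice, with 5 kidneys and 5 libraries in each of 8 groups. From an age of 30 days to 58 days the vehicle group received sesame oil by gavage every 4 days for 28 days, and the other 7 groups received 2,3,7,8-tetrachlorodibenzo-p-dioxin (TCDD) in the same oil at 0.03, 0.1, 0.3, 1, 3, 10 or 30 µg/kg. The labels name no transgene or deletion in any group. TCDD activates the aryl hydrocarbon receptor and is cleared slowly, and the series of doses addresses where along the dose range kidney genes respond.

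GBPs and IRGs are large GTPases that cells make in quantity after interferon-gamma, and to a lesser degree after type I interferons. Interferon-gamma binds its receptor on the cell surface, the kinases JAK1 and JAK2 pass the signal on, and IRF1 and other induced factors bind the promoters of these genes. The proteins assemble on membranes around intracellular microbes and on some host membranes, where the regulatory IRGs (Irgm1, Irgm2 and Igtp) hold the effector IRGs (Iigp1 and Tgtp2) in check. In kidney, tubular, endothelial and resident immune cells can all respond to interferon, so levels in whole tissue do not tell which cells made the transcripts.

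Total gene counts ranged from 15278423 to 25575317 per library. Expression is reported as CPM, a gene's counts scaled to the total of its library, with library sizes scaled by TMM factors, and each mean carries its SD over 5 kidneys. The libraries were those of kidney, with the proximal tubule markers Lrp2 at 3125 ± 560 CPM and Slc34a1 at 7208 ± 705 CPM in the vehicle group. Cyp1a1, the classical target of the aryl hydrocarbon receptor, stood at 2.37 ± 1.25 CPM without TCDD and rose to 2537 ± 436 CPM at the highest dose. In 3 libraries the summed adrenal cortex markers stood apart, at 578 CPM in 0.03 µg/kg replicate 1, 620 CPM in 1 µg/kg replicate 4 and 34.6 CPM in 3 µg/kg replicate 2, against 3.20 to 8.27 CPM in the other 37. Counts of calls at 1 and 3 µg/kg are also given without these libraries, and fold changes, levels and sums are given with all libraries.

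The GTPase genes lie in clusters on chromosomes 3 (the 5 GBPs), 11 (Igtp, Irgm1, Irgm2 and Tgtp2) and 18 (Iigp1) in the GENCODE M21 annotation. The bases before the RefSeq start sites (build GRCm38.p6) were searched on both strands for the interferon-stimulated response element core, GAAA, any 2 bases and GAAA, which IRF factors bind, and for the gamma-activated site TTCNNNGAA, which is known from promoters that respond to interferon-gamma and is its own reverse complement. Windows ran from 250 bases before to 50 after the start, and 9 of the 10 members had one, Gbp3 having 2. The stretches below are shown because they hold these matches for the members whose values the results turn on, with the matches in capitals, 5′ to 3′ along the gene's strand. The stretches of Igtp, Irgm2, Tgtp2, Irgm1 and Gbp2 end at the base before the start, and that of Gbp2b runs from 150 to 51 bases before it.
Igtp (chr11:58199456-58199555, forward strand): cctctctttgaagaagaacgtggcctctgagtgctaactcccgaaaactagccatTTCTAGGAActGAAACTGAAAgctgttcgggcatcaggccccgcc
Irgm2 (chr11:58214877-58214976, forward strand): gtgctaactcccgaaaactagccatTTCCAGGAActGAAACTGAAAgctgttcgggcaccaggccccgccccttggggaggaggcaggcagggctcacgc
Tgtp2 (chr11:49064213-49064312, reverse strand): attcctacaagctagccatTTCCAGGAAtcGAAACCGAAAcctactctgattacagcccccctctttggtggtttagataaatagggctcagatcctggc
Irgm1 (chr11:48871421-48871520, reverse strand): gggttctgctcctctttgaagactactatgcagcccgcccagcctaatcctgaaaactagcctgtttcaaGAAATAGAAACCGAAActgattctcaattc
Gbp2 (chr3:142620563-142620662, forward strand): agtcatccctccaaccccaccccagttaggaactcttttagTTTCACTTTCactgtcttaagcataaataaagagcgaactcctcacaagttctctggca
Gbp2b (chr3:142594697-142594796, forward strand): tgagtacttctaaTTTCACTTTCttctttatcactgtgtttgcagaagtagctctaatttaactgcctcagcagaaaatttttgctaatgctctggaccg
All 9 members with a window held the response element core in at least 1 window, against 3.44% of all 32851 windows. The gamma-activated site was found in 5 of the 9 (Gbp5, Gbp7, Igtp, Irgm2 and Tgtp2), against 8.30% of all windows. In Igtp, Irgm2 and Tgtp2 the gamma-activated site stood 2 bases ahead of the response element. Only 5 of the 32851 windows held that arrangement, and the other 2 belonged to the IRG genes Tgtp1 and Gm12185. This arrangement was not among the motifs planned and follows the spacing found in these members. Its count is a description and no test. The dioxin response element core GCGTG was found in the windows of Igtp and Irgm2 only, after the start of Igtp and ending at the base before the start of Irgm2, against 32.4% of all windows. The printed stretches of Igtp and Irgm2 are nearly the same around their matches, so windows of these families are not separate observations. These matches are descriptions of the reference letters, and no binding was measured.

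All 10 GTPase genes were higher than in vehicle at 1, 3, 10 and 30 µg/kg and none was called at 0.03, 0.1 or 0.3 µg/kg. A gene was called when the Benjamini-Hochberg adjusted p of edgeR's quasi-likelihood test, taken over all 17345 genes, was under 0.05. At 1 µg/kg 10 of 10 members were called higher, where 0.507% of all genes were. The same count held at 3 µg/kg (1.03% of all genes), at 10 µg/kg (3.82%) and at 30 µg/kg (8.39%). Since the members were chosen with earlier results of these data known, the contrast with these shares is a description. The summed level of the 10 genes was 125, 118, 100, 110 and 127 CPM in the 5 vehicle kidneys and 448, 491, 223, 302 and 406 CPM at 1 µg/kg, so every kidney at 1 µg/kg stood above every vehicle kidney. The median log2 fold change of the 10 was 1.74 at 1 µg/kg, 1.66 at 3 µg/kg, 1.81 at 10 µg/kg and 1.19 at 30 µg/kg, against medians of all genes between -0.005 and 0.011. Without Gbp2b, which had 0 or 1 read in each vehicle library, the medians of the other 9 were 1.48, 1.52, 1.80 and 1.11. All of these comparisons share the vehicle libraries, which were also used to describe each member below.

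At the 3 lowest doses edgeR called 0 of 10 members, with 0% of all genes called higher at 0.03 and 0.1 µg/kg and 0.00577% at 0.3 µg/kg, and DESeq2 also called 0 members. At an unadjusted p under 0.05 the counts were 0, 0 and 5. The 5 at 0.3 µg/kg were Gbp2, Gbp2b, Gbp3, Gbp7 and Iigp1. Ranked by unadjusted p in either direction, they ran from 22 for Gbp2b to 694 for Iigp1 among 17345 genes. The shares of all genes above are for the adjusted p only. Summed levels of the 10 genes at 0.3 µg/kg were 157, 170, 193, 122 and 117 CPM. The 2 lowest kidneys of that group lay within the vehicle range.

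**Figure D1:**
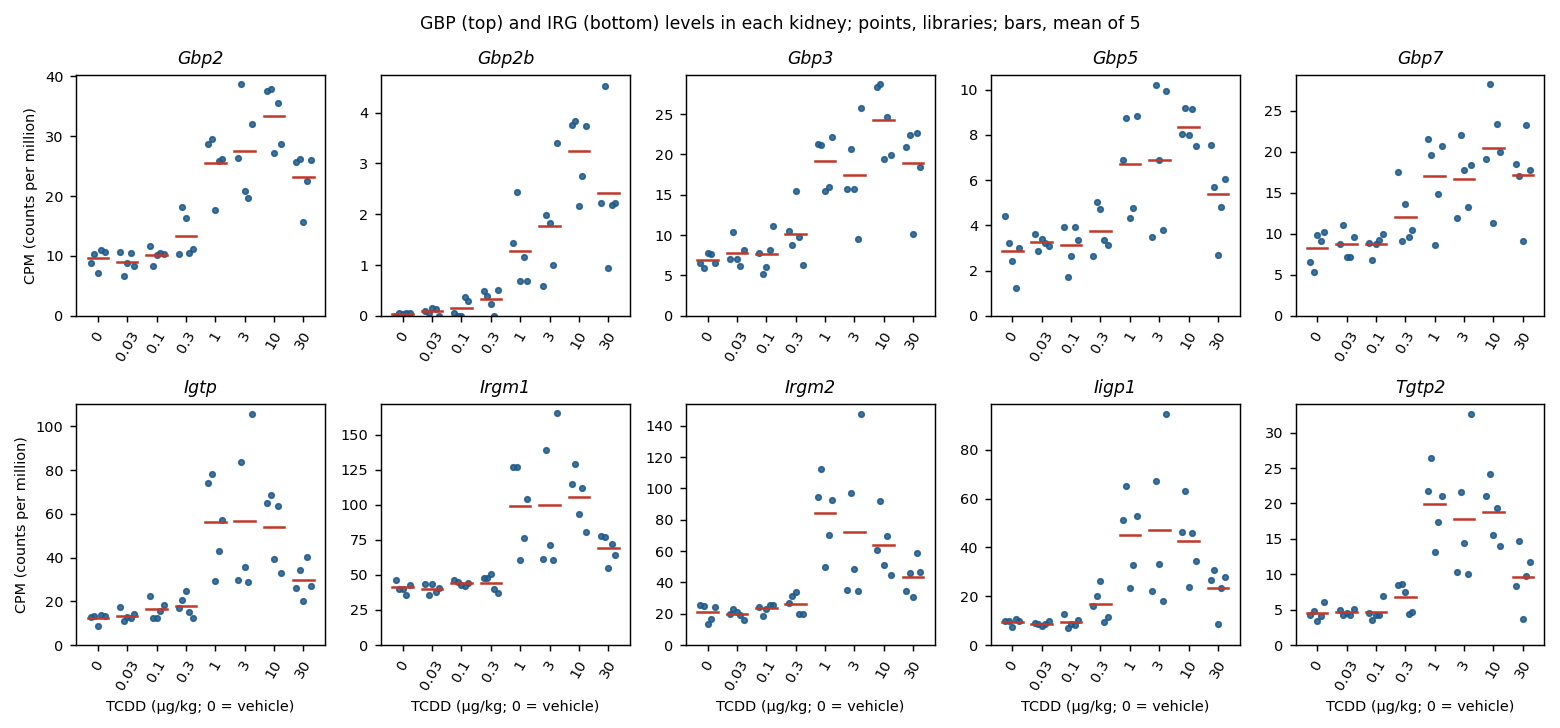
CPM of each GTPase gene (y axis, linear, own scale per panel) in each of the 40 kidneys by TCDD dose (x axis, µg/kg, 0 for vehicle). Points are libraries and bars the mean of 5; the points lie low up to 0.3 µg/kg, higher and more scattered from 1 to 10 µg/kg, and lower again at 30 µg/kg.

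Among the GBPs, which assemble into coats on membranes, Gbp2 had the smallest SE of the 10 members. Its vehicle levels were 8.76, 10.4, 7.21, 11.0 and 10.7 CPM. They were 28.7, 29.5, 17.6, 25.8 and 26.2 CPM at 1 µg/kg and 37.6, 37.8, 27.2, 35.6 and 28.6 CPM at 10 µg/kg. The groups did not overlap, since the highest vehicle kidney was below the lowest kidney of either dose. The log2 fold change ± SE of Gbp2 was 1.41 ± 0.18 (adjusted p = 7.02e-06) at 1 µg/kg, 1.80 ± 0.18 (adjusted p = 4.6e-09) at 10 µg/kg and 1.28 ± 0.18 (adjusted p = 2.57e-06) at 30 µg/kg.

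Gbp2b, known in older maps as Gbp1, was close to absent in vehicle kidneys, with 0 or 1 read in each library. Its levels were 1.43, 2.43, 0.689, 1.15 and 0.685 CPM at 1 µg/kg, 3.76, 3.84, 2.15, 2.75 and 3.73 CPM at 10 µg/kg and 2.22, 4.52, 0.949, 2.19 and 2.22 CPM at 30 µg/kg. Every kidney at these doses exceeded every vehicle kidney. Against a floor of 3 reads per library (0.197 CPM in the shallowest vehicle library) its mean was at least 6.47-fold higher at 1 µg/kg, 16.5-fold at 10 µg/kg and 12.3-fold at 30 µg/kg. Gbp2b would not have passed the low-count filter on vehicle libraries alone, so its call is not counted as support. The other 9 members would have passed it, and all 9 were called higher at 1, 3, 10 and 30 µg/kg.

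Gbp3 levels were 6.51, 5.88, 7.77, 7.63 and 6.57 CPM in vehicle kidneys, 21.2, 21.1, 15.4, 16.0 and 22.2 CPM at 1 µg/kg and 28.3, 28.7, 19.4, 24.6 and 19.9 CPM at 10 µg/kg. No kidney at either dose lay within the vehicle range. Its log2 fold change was 1.48 ± 0.23 (adjusted p = 0.000217) at 1 µg/kg, 1.82 ± 0.23 (adjusted p = 7.79e-07) at 10 µg/kg and 1.46 ± 0.23 (adjusted p = 1.87e-05) at 30 µg/kg. Gbp5, a promoter of inflammasome assembly in macrophages, had 4.44, 3.24, 2.42, 1.25 and 3.00 CPM in vehicle kidneys and 8.05, 9.17, 7.99, 9.14 and 7.51 CPM at 10 µg/kg, without overlap. Its change was 1.22 ± 0.28 (adjusted p = 0.0218) at 1 µg/kg and 0.91 ± 0.28 (adjusted p = 0.0214) at 30 µg/kg. At each of these doses 1 kidney overlapped the vehicle group. At 3 µg/kg only 3 kidneys lay above every vehicle kidney.

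Gbp7, linked to defence at vacuoles that hold microbes, had 6.51, 5.37, 9.80, 9.07 and 10.3 CPM in vehicle kidneys and 21.5, 19.6, 8.65, 14.9 and 20.7 CPM at 1 µg/kg. Replicate 3 at 1 µg/kg lay within the vehicle range and the other 4 above it. At 30 µg/kg replicate 3, at 9.15 CPM, also lay within that range. Its log2 fold change was 1.06 ± 0.25 (adjusted p = 0.0296) at 1 µg/kg, 1.02 ± 0.25 (adjusted p = 0.0236) at 3 µg/kg and 1.32 ± 0.25 (adjusted p = 0.000393) at 10 µg/kg. Gbp5, Gbp7 and Irgm2 were the members that lost a call against vehicle when a single library was left out. At 1 µg/kg Gbp7 lost it without vehicle replicate 1, 2 or 4 or dosed replicate 1, 2 or 5 (adjusted p 0.0524 to 0.148 in edgeR), and Gbp5 without vehicle replicate 3 or 4 or dosed replicate 1, 2 or 5 (0.0501 to 0.0997). At 3 µg/kg Gbp7 lost it without vehicle replicate 1 or 2 or dosed replicate 2, 3 or 5 (0.0579 to 0.117), and Gbp5 without dosed replicate 2 or 5 (0.0626 and 0.0743). At 30 µg/kg Gbp5 lost it without vehicle replicate 3 or 4 or dosed replicate 1 or 5 (0.0514 to 0.0839), and Irgm2 without vehicle replicate 3 or dosed replicate 4 (0.0589 and 0.0609). Of the exon bases of Gbp7, 11.3% lie in the overlapping gene Gm43802 on the same strand, where reads could not be assigned to 1 gene.

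The regulatory IRGs were called at the same doses as the effectors. Igtp, which resides on the endoplasmic reticulum, had 12.9, 13.1, 8.51, 13.7 and 13.2 CPM in vehicle kidneys, 74.2, 78.4, 29.3, 43.1 and 57.2 CPM at 1 µg/kg and 26.1, 34.4, 20.2, 40.1 and 27.2 CPM at 30 µg/kg. Both dosed groups lay wholly above vehicle, and the 30 µg/kg group overlapped only the lowest kidney at 1 µg/kg. Its log2 fold change was 2.21 ± 0.33 (adjusted p = 0.000162) at 1 µg/kg, 2.14 ± 0.32 (adjusted p = 2.67e-05) at 10 µg/kg and 1.27 ± 0.32 (adjusted p = 0.00534) at 30 µg/kg. Igtp and Irgm2 share exon bases on the same strand (8.01% of Igtp and 4.39% of Irgm2).

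Irgm1, which is known for its part in autophagy and in limiting interferon responses, had 46.7, 40.3, 40.3, 35.6 and 42.9 CPM in vehicle. It had 127, 127, 60.5, 76.2 and 104 CPM at 1 µg/kg and 77.8, 77.2, 55.2, 72.1 and 64.2 CPM at 30 µg/kg. No kidney of either dose fell into the vehicle range. Its fold changes were the smallest of the IRGs, 1.27 ± 0.22 (adjusted p = 0.000836) at 1 µg/kg and 0.75 ± 0.21 (adjusted p = 0.013) at 30 µg/kg. Irgm2, a regulator that has been placed at the Golgi, had 25.6, 25.2, 13.3, 16.6 and 24.2 CPM in vehicle kidneys and 94.4, 113, 50.1, 70.2 and 92.8 CPM at 1 µg/kg, again without overlap. Its change was 2.00 ± 0.31 (adjusted p = 0.000281) at 1 µg/kg, 1.60 ± 0.31 (adjusted p = 0.000702) at 10 µg/kg and 1.05 ± 0.31 (adjusted p = 0.0155) at 30 µg/kg.

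Of the effector IRGs, Iigp1 (also Irga6) had 9.74, 9.67, 7.26, 10.7 and 9.86 CPM in vehicle kidneys, 51.0, 65.2, 23.6, 32.6 and 52.9 CPM at 1 µg/kg and 26.6, 30.7, 8.68, 23.2 and 28.0 CPM at 30 µg/kg. The lowest kidney at 30 µg/kg, replicate 3, lay within the vehicle range and the other 4 above it. Its log2 fold change was 2.26 ± 0.38 (adjusted p = 0.000712) at 1 µg/kg, 2.33 ± 0.38 (adjusted p = 0.000325) at 3 µg/kg and 1.32 ± 0.38 (adjusted p = 0.0129) at 30 µg/kg. Tgtp2 (also Irgb6) had 4.21, 4.86, 3.37, 4.08 and 6.12 CPM in vehicle kidneys, 21.7, 26.4, 13.2, 17.4 and 21.0 CPM at 1 µg/kg and 8.41, 14.8, 3.73, 9.77 and 11.7 CPM at 30 µg/kg. At 30 µg/kg replicate 3 again fell within the vehicle range. Its log2 fold change was 2.14 ± 0.30 (adjusted p = 3.81e-05) at 1 µg/kg and 1.11 ± 0.30 (adjusted p = 0.00799) at 30 µg/kg. Of the 100-base stretches in Tgtp2 transcripts, 76.8% also occur in Tgtp1, so the division of reads between this pair is uncertain.

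**Figure D2:**
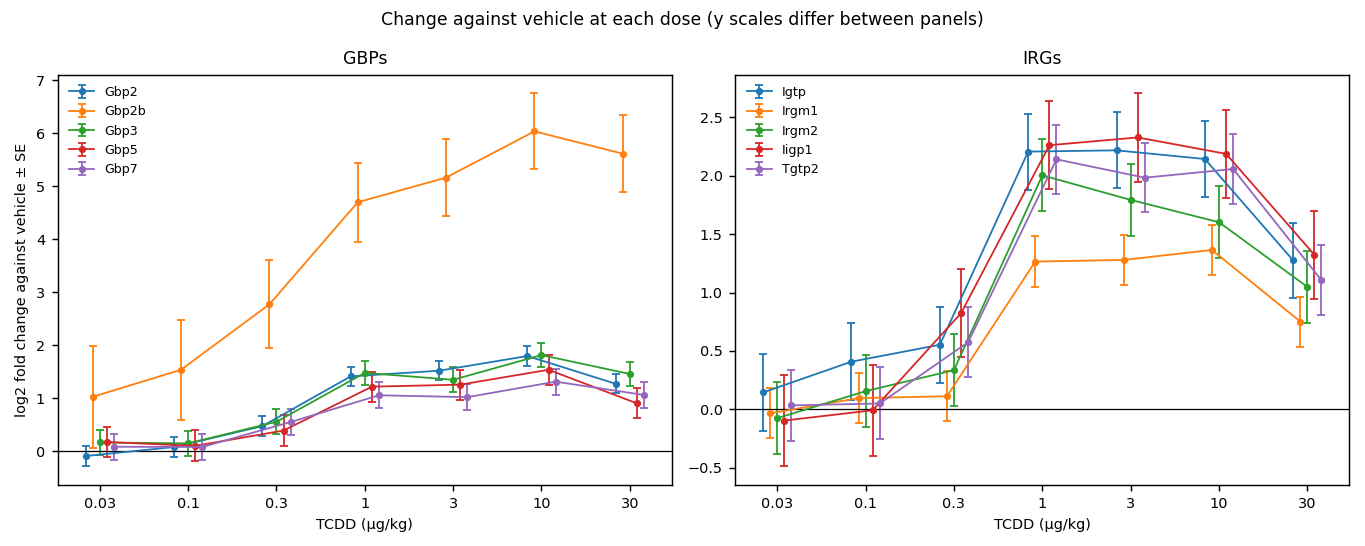
Log2 fold change against vehicle ± SE from edgeR (y axis) at each TCDD dose (x axis, µg/kg) for the 5 GBPs (left) and the 5 IRGs (right), with separate y scales. All 10 lie above 0 from 1 µg/kg on and all 10 are lower at 30 than at 10 µg/kg; the Gbp2b values rest on 0 or 1 read per vehicle library and depend on the prior count.

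The libraries did not support each call equally. All 5 kidneys lay above all 5 vehicle kidneys for 8 of 10 members at 1 µg/kg (1.19% of all genes), 9 at 3 µg/kg (1.67%), 10 at 10 µg/kg (4.32%) and 6 at 30 µg/kg (3.59%). Gbp2b, which would not have passed the low-count filter on vehicle libraries alone, is among those counted at each of these doses. Without the 3 libraries with adrenal markers, 9 of 10 members were called at 1 µg/kg and 8 at 3 µg/kg, with the count unchanged at 10 and 30 µg/kg. The members lost were Gbp7 at 1 µg/kg, at an adjusted p of 0.0533, and Gbp5 and Gbp7 at 3 µg/kg, at 0.0678 and 0.134. When the 10 libraries of vehicle and 3 µg/kg were fitted alone, 5 members were called in place of 10. Those lost in edgeR were Gbp5 (adjusted p = 0.163), Igtp (0.0858), Irgm1 (0.176), Irgm2 (0.204) and Iigp1 (0.108). Such fits gave 8 members at 1 µg/kg, 10 at 10 µg/kg and 9 at 30 µg/kg.

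Levels of different genes are compared here per kb of exon. In vehicle Irgm1 (7.08 ± 0.699 CPM per kb), Igtp (6.08 ± 1.06) and Irgm2 (5.69 ± 1.53) led, and their libraries overlapped. Gbp2 followed at 3.82 ± 0.639, its range overlapping those of Irgm2 and Igtp, and then Gbp3 at 2.10 ± 0.247, below every library of Gbp2. Iigp1 (1.62 ± 0.220), Tgtp2 (1.54 ± 0.353) and Gbp7 (1.46 ± 0.382) overlapped each other. Gbp5 (0.432 ± 0.176) and Gbp2b (0.0153 ± 0.00905) each lay wholly below the gene before. The 3 regulatory IRGs had the highest means in untreated kidney, and the inflammasome-linked Gbp5 stood near its foot.

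At 1 µg/kg the order per kb began with Igtp (27.9 ± 10.2 CPM per kb), Irgm2 (22.8 ± 6.55) and Irgm1 (17.0 ± 5.15), with overlapping ranges. Iigp1 (7.74 ± 2.87) and Tgtp2 (6.78 ± 1.69) now had higher means than Gbp3 (5.88 ± 0.986), though these 3 overlapped. Of the summed CPM per kb of the 10 genes, the GBPs held 26.5 ± 3.16% in vehicle kidneys, 20.5 ± 2.35% at 1 µg/kg, 26.4 ± 2.57% at 10 µg/kg and 30.1 ± 2.50% at 30 µg/kg. This within-library share was lowest at 1 µg/kg and highest at 30 µg/kg, and it does not depend on library scaling. The share ran from 23.0 to 30.1% in the vehicle kidneys and from 17.7 to 23.2% at 1 µg/kg, so 1 vehicle kidney reached into the range at 1 µg/kg. These shares are descriptions with no test.

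**Figure D3:**
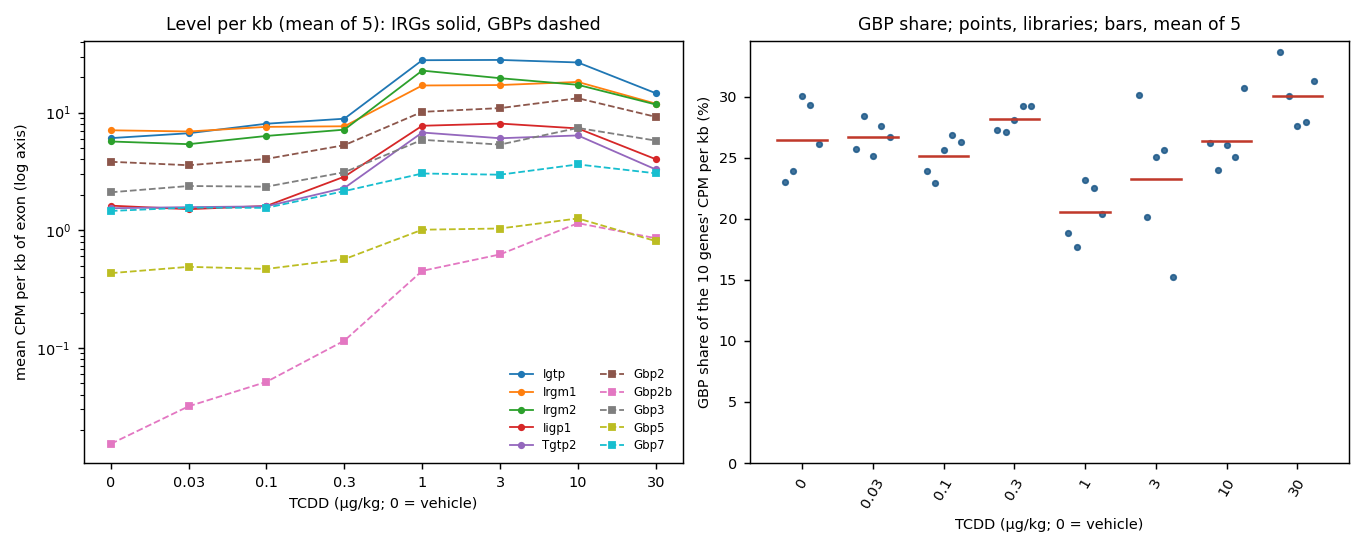
Left, mean CPM per kb of exon (y axis, log scale, n = 5) of each gene by TCDD dose (x axis, µg/kg), IRGs solid and GBPs dashed. Right, the GBP share of the summed CPM per kb in each library (y axis, %), with bars at the mean of 5; the share dips at 1 µg/kg (20.5 ± 2.35%) and is highest at 30 µg/kg (30.1 ± 2.50%).

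Among neighbouring doses, members were called only between 0.3 and 1 µg/kg with edgeR. There 5 of 10 members were called higher (Gbp2, Igtp, Irgm1, Irgm2 and Tgtp2), where 0.213% of all genes were. Their log2 fold changes over this step were 0.94 ± 0.18 for Gbp2, 1.65 ± 0.32 for Igtp, 1.15 ± 0.21 for Irgm1, 1.67 ± 0.30 for Irgm2 and 1.57 ± 0.29 for Tgtp2, with adjusted p-values of 0.00968 to 0.0107. All 10 members had an unadjusted p under 0.05. The largest was that of Gbp7, which ranked 623 by p among 17345 genes. DESeq2 called 7 members, and 59 genes in all. All 5 kidneys at 1 µg/kg lay above all 5 at 0.3 µg/kg for Igtp, Irgm1, Irgm2, Tgtp2 and Gbp2b (0.749% of all genes did). The count of calls rested on single libraries of the 0.3 µg/kg group. It was 0 without replicate 4 or without replicate 5, the 2 kidneys with the lowest summed levels of that group, 4 to 6 without any other library of the pair, 5 without the 3 libraries with adrenal markers, and 2 when the 10 libraries were fitted alone.

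From 1 to 10 µg/kg no member passed the test between neighbouring doses. EdgeR and DESeq2 each called 0 members between 1 and 3 µg/kg and 0 between 3 and 10 µg/kg. In edgeR 0.0115% and 0.0922% of all genes were called higher, and 0 and 1 member had an unadjusted p under 0.05. That 1 member, Gbp3, ranked 1180 by p among 17345 genes. Mean Igtp was 56.4 ± 20.7 CPM at 1 µg/kg, 56.7 ± 35.5 CPM at 3 µg/kg and 54.0 ± 16.4 CPM at 10 µg/kg. Over the same doses Cyp1a1 went from 99.4 ± 12.1 CPM to 294 ± 58.7 CPM and 1569 ± 147 CPM. The 5 GBPs and Irgm1 had their highest mean at 10 µg/kg, Igtp and Iigp1 at 3 µg/kg, and Irgm2 and Tgtp2 at 1 µg/kg. The differences between these neighbouring means did not pass the test, and the order among 1, 3 and 10 µg/kg is a description.

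At 30 µg/kg all 10 members had lower fitted levels than at 10 µg/kg, with log2 fold changes from -0.95 for Tgtp2 to -0.25 for Gbp7 and a median of -0.58, against 0.002 over all genes. None passed the test with edgeR, where 1.52% of all genes were called lower, and 6 had an unadjusted p under 0.05. The largest p of these 6 was that of Gbp5, which ranked 1708 by p among 17345 genes. The adjusted p of Tgtp2 was 0.0563 with edgeR and 0.016 with DESeq2, which called this 1 member and 636 genes in all. In edgeR Tgtp2 was also called with sense-strand counts (0.00607), under a stricter low-count filter (0.0499) and without 30 µg/kg replicate 2 (0.0163). The sense-strand counts hold 50.4 to 51.0% of the gene counts of these unstranded libraries. It was not called in edgeR with DESeq2 size factors (0.0567), upper quartile factors (0.06), no low-count filter (0.117) or the run of sample numbers as a covariate (0.0601). No member was called when the 10 libraries were fitted alone or without the 3 libraries with adrenal markers. All 5 kidneys at 30 µg/kg lay below all 5 at 10 µg/kg for Gbp2 and Irgm1, 2 of 10 members against 1.07% of all genes. In the fit over the dose rank, in which each dose step counts the same, all 10 members had a rising trend, as did 11.0% of all genes. That term is linear and does not describe the lower level at 30 µg/kg.

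Kidneys of 1 dose differed widely and the 10 genes moved together in them. At 3 µg/kg the summed levels were 217, 502, 266, 200 and 635 CPM, so that replicates 2 and 5 stood far above the other 3. Cyp1a1 in the same libraries was at 261, 235, 260, 361 and 354 CPM. Cyp1a1 was lowest in replicate 2, which had the second highest GTPase sum and was 1 of the 3 libraries with adrenal markers (34.6 CPM). At 10 µg/kg replicate 2 had the highest level of all 10 members, and at 30 µg/kg replicate 3 had the lowest level of all 10, with a sum of 157 CPM against 248 to 279 CPM in the other 4. Over the 40 libraries the 45 pairs of members had Pearson correlations of 0.741 to 0.970 (median 0.883) between log2 CPM. With each group's mean taken out the correlations were 0.365 to 0.894 (median 0.657). The pairs share libraries and depth, and the values are descriptions.

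**Figure D4:**
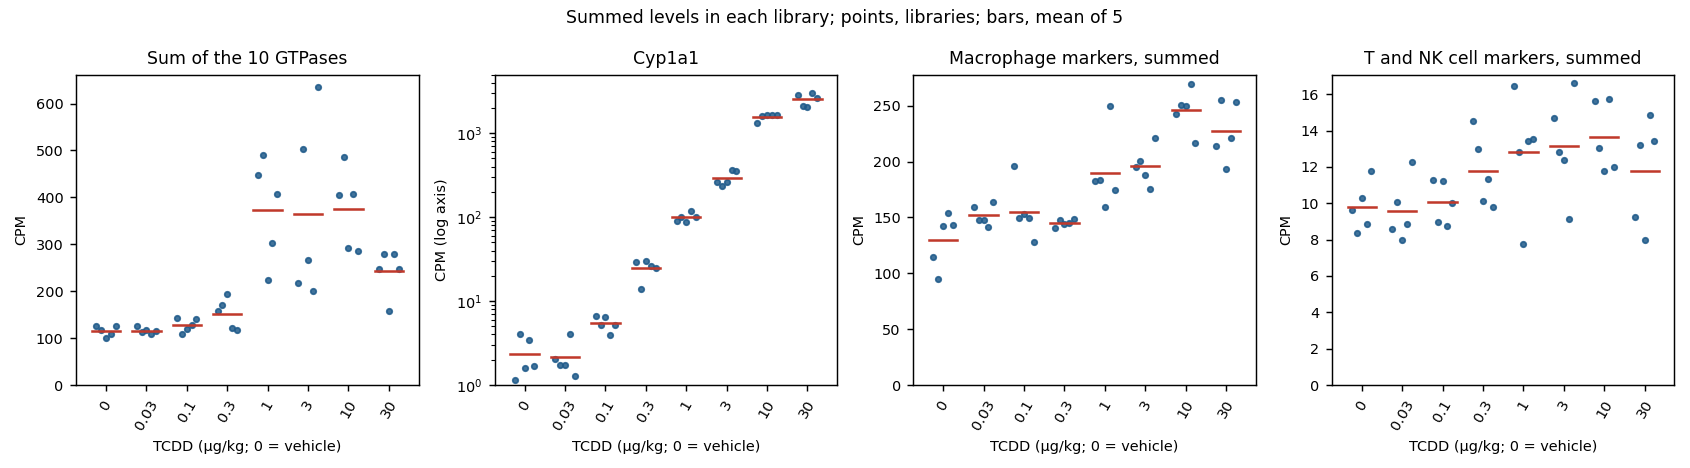
Summed CPM of the 10 GTPases, Cyp1a1 (log axis), summed macrophage markers and summed T and NK cell markers in each library (y axes, CPM) by TCDD dose (x axis, µg/kg, 0 for vehicle). Points are libraries and bars the mean of 5; the mean GTPase sum is 374 CPM at 1 µg/kg, 375 CPM at 10 µg/kg and 242 CPM at 30 µg/kg, while mean Cyp1a1 is higher at each of these doses than at the one before.

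Markers of immune cells moved with some of these comparisons. In bulk tissue more cells of a type and more RNA per cell cannot be told apart. Of 12 macrophage markers, 0 were called at 0.3 µg/kg, 2 at 1 µg/kg, 5 at 3 µg/kg and 8 at both 10 and 30 µg/kg, all higher, led at 30 µg/kg by Itgam (log2 fold change 2.23 ± 0.57), the complement gene C1qa (adjusted p = 3.34e-09) and the lysozyme gene Lyz2 (1.45 ± 0.21). Itgam had at most 61 reads in a library, and 68.7% of its exon bases lie in the overlapping gene Gm49368 on the same strand. Their summed level was 94.6 to 154 CPM in vehicle kidneys, 159 to 249 CPM at 1 µg/kg, 217 to 269 CPM at 10 µg/kg and 193 to 255 CPM at 30 µg/kg, and Cd163 was the only marker with a 0, in 1 of the 40 libraries. The highest value at 1 µg/kg, 249 CPM, came from replicate 4, which had adrenal markers, and without the 3 such libraries 1 macrophage marker was called at 1 µg/kg and 4 at 3 µg/kg. Of 6 dendritic cell markers 0, 2, 3 and 1 were called higher at 1, 3, 10 and 30 µg/kg, Itgax at 30 µg/kg (0.88 ± 0.27), and their sum was 14.0 to 19.6 CPM in vehicle kidneys and 18.4 to 24.3 CPM at 1 µg/kg. The part of these cells in the GTPase levels was not tested.

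T and NK cells are the main source of interferon-gamma. Of 18 T and NK cell markers 15 could be tested, and edgeR called 0 against vehicle at every dose, with 1, 1, 3 and 1 at an unadjusted p under 0.05 at 1, 3, 10 and 30 µg/kg, all higher. In the fit over the dose rank, where all 10 GTPases were called, 4 of the 15 were called rising: Cd4, Lck, Nkg7 and Prf1, named after their values were seen. Their summed level was low throughout, 8.36 to 11.8 CPM in vehicle kidneys, 7.77 to 16.5 CPM at 1 µg/kg, 11.8 to 15.7 CPM at 10 µg/kg and 8.00 to 14.9 CPM at 30 µg/kg, and Gzmb, Klrb1c and Ncr1 were at 0 in 11, 13 and 11 of the 40 libraries. At 1 µg/kg replicate 3, the kidney with the lowest GTPase sum of its dose, also had the lowest T and NK sum, 7.77 CPM. At 30 µg/kg replicate 3, lowest for all 10 members, had 8.00 CPM. Both kidneys also had the lowest macrophage sums of their doses, 159 and 193 CPM. At 3 µg/kg replicates 4 and 5 were lowest and highest for both the GTPase and the T and NK sums. Replicate 1 of that dose had a GTPase sum of 217 CPM with 14.7 CPM for T and NK, and replicate 2 had 502 with 12.8 CPM. At 10 µg/kg replicate 2 had the highest GTPase sum, 485 CPM, but its T and NK sum of 13.1 CPM was below those of replicates 1 and 4. Of 5 B and plasma cell markers edgeR called 0, with 0 at an unadjusted p under 0.05 at 1 µg/kg, and their sums were 2.04 to 5.01 CPM in vehicle kidneys and 2.07 to 6.10 CPM at 1 µg/kg. Of 6 neutrophil markers, Mpo had 0 reads in all 40 libraries, Ly6g had 1 read in 1 library, 3 could be tested and edgeR called 0 against vehicle at every dose, with 0, 1, 2 and 1 at an unadjusted p under 0.05 at 1, 3, 10 and 30 µg/kg. In the fit over the dose rank 2 of the 3 were called rising, S100a9 and Csf3r, both named after their values were seen. Without the 3 libraries with adrenal markers 1 neutrophil marker was called higher at 30 µg/kg. The part of these cells in the GTPase levels was not tested.

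Of the other cells of the kidney, endothelial cells are known responders to interferon. Of 10 endothelial markers 0, 2, 7 and 6 were called higher at 1, 3, 10 and 30 µg/kg, led at 30 µg/kg by Emcn (0.74 ± 0.08), and their summed level was 679 to 813 CPM in vehicle kidneys, 655 to 826 CPM at 1 µg/kg and 901 to 989 CPM at 10 µg/kg. Of 8 proximal tubule markers edgeR called 0 at 1 and 3 µg/kg, with 2 and 0 at an unadjusted p under 0.05, then 1 lower at 10 µg/kg, and 1 higher and 3 lower at 30 µg/kg. Of 5 podocyte markers 4 were called higher at 10 µg/kg and 3 at 30 µg/kg, and of 8 distal nephron markers 4 were called lower at 10 µg/kg and 3 at 30 µg/kg. Neither list had a call at 1 or 3 µg/kg in either direction. The share of all genes called lower against vehicle is not given in this report, so counts called lower are descriptions. The part of these cells in the GTPase levels was not tested.

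The ligand and receptor genes of the pathway gave few reads or few calls. Of a list of 9, 4 could be tested, and 2 of these 4 were called rising in the fit over the dose rank. Ifng itself had 27 reads in all 40 libraries together, with 0 in 32 of them, and could not be tested. The vehicle group had 0 reads, which with a limit of 3 reads per library allows up to 0.197 CPM, and the largest group total was 12 reads at 0.03 µg/kg. A change in Ifng was not detectable at this depth. The receptor chain Ifngr1 was called higher at 10 µg/kg (0.31 ± 0.09, adjusted p = 0.033) and 30 µg/kg (0.61 ± 0.09, adjusted p = 3.48e-06) and not at 1 µg/kg (0.10 ± 0.09, adjusted p = 0.897). Its partner chain Ifngr2 was not called at any dose (-0.16 ± 0.10, adjusted p = 0.789 at 1 µg/kg). Among the cytokine genes upstream of interferon-gamma, Il18 was at 0.12 ± 0.39 and the receptor gene Il12rb1 at 2.19 ± 0.82 (adjusted p = 0.428) at 1 µg/kg, and Il12a, Il12b, Il12rb2 and Il27 had too few reads to test.

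Several transcription factors of the pathway were called higher from 1 µg/kg on. Of 8 signalling genes 4 were called higher at 1 µg/kg, 3 at 3 µg/kg, 5 at 10 µg/kg and 4 at 30 µg/kg. Without the 3 libraries with adrenal markers the counts were 3, 2, 6 and 4. Irf1, an early factor of the interferon response, changed by 1.23 ± 0.18 (adjusted p = 3.52e-05) at 1 µg/kg and 0.88 ± 0.18 (adjusted p = 0.000349) at 30 µg/kg. Irf8, a myeloid factor, changed by 0.67 ± 0.13 (adjusted p = 0.00391) at 1 µg/kg, and Stat2 and Irf9, which act in type I interferon signalling, by 0.54 ± 0.11 (adjusted p = 0.0041) and 0.50 ± 0.12 (adjusted p = 0.0357). Irf2 passed the test at 10 µg/kg alone, at 0.33 ± 0.10 (adjusted p = 0.0399). The kinases Jak1 (-0.17 ± 0.07, adjusted p = 0.623) and Jak2 (0.18 ± 0.11, adjusted p = 0.795), named after their values were seen, were not called at 1 µg/kg. Of 5 inhibitors of the pathway Socs3 was called at 30 µg/kg (1.31 ± 0.30, adjusted p = 0.00153), and 0 were called at 1, 3 or 10 µg/kg. In the fit over the dose rank 2 of the 5 were called rising.

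Other targets of interferon-gamma were called in most cases. Of 15 tested of a list of 16, 10 were called higher at 1 µg/kg and 12 at each of 3, 10 and 30 µg/kg, and the median of their log2 fold changes at the first of these doses was 1.30. The ubiquitin-like modifier gene Ubd changed by 2.92 ± 0.57 (adjusted p = 0.00304) at 1 µg/kg, Nlrc5, the activator of MHC class I genes, by 1.92 ± 0.27 (adjusted p = 3.52e-05), and the chemokine gene Cxcl9 by 1.65 ± 0.35 (adjusted p = 0.00746). Cxcl10 missed the threshold at 1 µg/kg (1.47 ± 0.38, adjusted p = 0.0742) and was called at 10 µg/kg (2.60 ± 0.38, adjusted p = 1.05e-05), and Cxcl11 was not called at any dose. Without the 3 libraries with adrenal markers 9 targets were called at 1 µg/kg and 10 at 3 µg/kg.

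Part of the other GBP and IRG genes were called as well. Of 13 tested of a list of 14, 6 were called higher at 1 µg/kg, 6 at 3 µg/kg, 11 at 10 µg/kg and 6 at 30 µg/kg, and 6, 5, 11 and 6 without the 3 libraries with adrenal markers. Gbp6 had 3.68 ± 0.833 CPM in vehicle kidneys and 22.6 ± 6.65 CPM at 10 µg/kg, a change of 2.62 ± 0.34 (adjusted p = 2.24e-06). Gm12250 and Gm5431, both IRG genes, were called at 10 µg/kg (2.02 ± 0.46, adjusted p = 0.00327 for the first and 1.96 ± 0.54, adjusted p = 0.0196 for the second) and not at 1 µg/kg. Irgc1, a testis form, had 5 reads in all libraries and could not be tested.

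Partners of the GTPases in autophagy and cell death gave few calls below 30 µg/kg. Of 16 genes 1 was called higher at 1, 3 and 10 µg/kg, 1 lower at 10 µg/kg, and 5 higher and 1 lower at 30 µg/kg. The gene called higher at each of these doses was Gsdmd, the pore-forming gasdermin, at 0.81 ± 0.19 (adjusted p = 0.0271) at 1 µg/kg and 1.67 ± 0.19 (adjusted p = 1.22e-08) at 30 µg/kg. Casp4, the sensor of cytosolic lipopolysaccharide, changed by 1.09 ± 0.36 (adjusted p = 0.0309) at 30 µg/kg and the autophagy gene Gabarapl1 by 0.42 ± 0.09 (adjusted p = 0.000521). Sqstm1 (0.34 ± 0.08), Map1lc3b (0.31 ± 0.08) and Atg3 (-0.35 ± 0.09), the gene called lower at 10 and 30 µg/kg, complete the calls at 30 µg/kg and were named after their values were seen. The difference between this list and the GTPases was not tested. Gsdmd lost its call at 1 µg/kg, and 0 of 16 genes were called there, without the 3 libraries with adrenal markers.

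Of 20 genes best known as targets of type I interferon, 4 were called higher at 1 µg/kg, 10 at 3 µg/kg, 19 at 10 µg/kg and 15 at 30 µg/kg, with median log2 fold changes of 0.71, 0.89, 1.41 and 1.01. Without the 3 libraries with adrenal markers the counts were 3, 8, 19 and 14. Ifit1 changed by 1.13 ± 0.24 (adjusted p = 0.00834) at 1 µg/kg and 2.20 ± 0.24 (adjusted p = 1.45e-08) at 10 µg/kg. Irf7 was at 0.73 ± 0.19 (adjusted p = 0.0684) and 1.81 ± 0.19 (adjusted p = 6.64e-09) at these doses, and Oasl1 at 0.59 ± 0.30 (adjusted p = 0.719) and 1.82 ± 0.29 (adjusted p = 2.5e-05). Oas3 was at 2.09 ± 0.58 (adjusted p = 0.11) at 1 µg/kg and 2.00 ± 0.58 (adjusted p = 0.012) at 30 µg/kg. At 1 µg/kg the lowest log2 fold change among the 9 GTPases above the floor was 1.06. The median of this list at that dose was below it, though Ifit1 and Oas3 were above it. The order was the same at 3 µg/kg, where the lowest GTPase changed by 1.02. At 10 and 30 µg/kg the lowest GTPase, at 1.32 and 0.75, fell short of the list's median. Compared by medians, the 9 GTPases stood above the list at each dose, at 1.48, 1.52, 1.80 and 1.11. Whether the dose course of the lists differs was not tested.

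**Figure D5:**
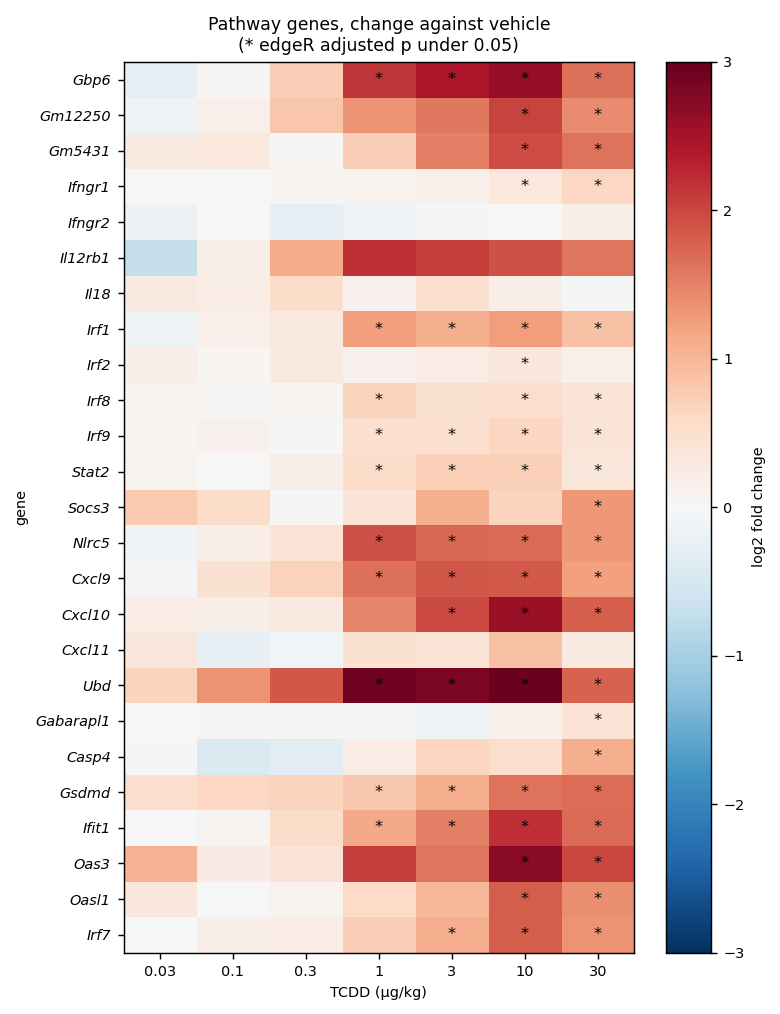
Log2 fold change against vehicle (colour, from -3 to 3) at each TCDD dose (x axis, µg/kg) of the 25 tested pathway genes named by rule (y axis), with an asterisk where edgeR's adjusted p was under 0.05. Irf1 and Nlrc5 carry an asterisk from 1 to 30 µg/kg, Ifngr1 only at 10 and 30 µg/kg and Ifngr2 at no dose.

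Over the 40 libraries, the genes whose log2 CPM was most like the mean of the 10 members, each scaled to mean 0 and SD 1, were Gbp6 (Pearson r = 0.983), Nlrc5 (0.964), Parp14 (0.957), Tgtp1 (0.956), Ifi47 (0.955), H2-Aa (0.953), H2-Ab1 (0.951) and BC023105 (0.946), out of 17335 genes compared. With group means taken out their correlations ran from 0.769 for H2-Ab1 to 0.935 for Gbp6. H2-Aa and H2-Ab1 encode chains of an MHC class II molecule and changed by 1.11 ± 0.17 (adjusted p = 0.000192) and 1.71 ± 0.27 (adjusted p = 0.000374) at 1 µg/kg. Parp14, an ADP-ribosyltransferase, changed by 0.97 ± 0.17 (adjusted p = 0.000712) and BC023105 by 3.40 ± 0.52 (adjusted p = 0.000192). Ifi47 and Tgtp1 are themselves IRG genes, and Tgtp1 shares sequence with Tgtp2. Points share libraries and depth, and likeness is a description.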

How the data were processed

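Right-kidney RNA of 40 mice was sequenced as 1 library per mouse. The deposited files hold raw read counts per gene, in STAR's layout per the file headers and layout, and their unstranded counts were used. The submitters' processing notes name FastQC 0.11.7, Trimmomatic 0.39, STAR 2.7.3a, DESeq2 and the builds GRCm39 and mm10 without saying what each was used for, so no gene coordinates were taken from the files. A deposited wide table of transformed values was not used. The alignment settings and annotation are not given in the sources used here.

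Of the 55359 Ensembl identifiers, 52083 matched a GENCODE M21 name; the 3276 others held 0.663% of counts and stayed in the fit. Unmapped reads (1.41 to 2.66%), multimapping reads (6.98 to 9.70%), reads in no gene (5.28 to 7.27%) and ambiguous reads (5.40 to 5.98%) were left out. Reads that map to near-identical copies are lost or split by such counting. Of the gene counts 50.4 to 51.0% lay on the sense strand column, so the libraries carry no strand information and antisense overlaps cannot be resolved.

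The 40 libraries were fitted together by dose group in edgeR 4.0.16 (R 4.3.3, limma 3.58.1) with filterByExpr, TMM factors (0.966 to 1.09) and the robust quasi-likelihood test, which was tested on simulated data. P-values were Benjamini-Hochberg adjusted over 17345 genes. The common biological coefficient of variation was 17.1%. DESeq2 1.42.0 on the same counts was an alternative. Replicate numbers follow the order of deposit. No 2 libraries of a group agreed within sampling noise (chi-square per degree of freedom 6.90 to 78.8 over 80 pairs). Promoters came from RefSeq (GRCm38.p6), and exon lengths from GENCODE M21. Floors and limits cover counting error only.

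The members and lists were chosen with earlier results of these data known. All members are described. From each other list the named genes were up to 3 called genes with the largest change at 30 µg/kg, plus ligands, receptors and transcription factors of the pathway. A gene of the signalling list is not reported here. Jak1, Jak2, Lrp2 and the markers counted at 0 lie outside this rule. The alternatives covered scaling, low-count filters, strand, the run of sample numbers (1 to 27 or 28 to 53) as a covariate, DESeq2, fits of 10 libraries and leaving out each library. The fit without the 3 libraries with adrenal markers was chosen after seeing the data.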

Additional observations from a re-analysis of the deposited data

Results flagged for a closer look

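Among the vehicle kidneys, replicate 3 had an Igtp level of 8.51 CPM, set apart from the other 4 at 12.9 to 13.7 CPM by a gap that is large for the range of the group. The same library had the lowest Iigp1 level, 7.26 CPM, against 9.67 CPM in the next kidney. Both genes are IRGs, and the sum of the 10 GTPases was also lowest in this kidney, at 100.0 CPM. These were 2 of 80 sets of 5 libraries examined, and chance alone sets apart about 1 in 20. Without this library 9 members were called higher at 1 µg/kg, 10 at 3 µg/kg, 10 at 10 µg/kg and 8 at 30 µg/kg, with Gbp5 lost at 1 µg/kg and Gbp5 and Irgm2 lost at 30 µg/kg.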

How the results depend on the processing

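The counts of members called against vehicle stayed at 0 for 0.03, 0.1 and 0.3 µg/kg and at 10 for 10 µg/kg under every alternative run. Fitting only the 10 libraries compared gave 5 in place of 10 at 3 µg/kg (Gbp5, Igtp, Irgm1, Irgm2 and Iigp1 lost). Such fits gave 8 at 1 µg/kg (Gbp5 and Gbp7 lost), 9 at 30 µg/kg (Gbp5 lost) and 2 in place of 5 for 1 against 0.3 µg/kg. The cause was not tested. For 30 against 10 µg/kg 1 member in place of 0 was called with at least 1 CPM in 5 libraries, with sense-strand counts and with DESeq2; the cause was not tested. Leaving out single libraries (40 fits) gave 8 to 10 members at 1, 3 and 30 µg/kg, 10 to 10 at 10 µg/kg, 0 to 6 for 1 against 0.3 µg/kg, 0 to 1 for 30 against 10 µg/kg, 0 to 0 for the other neighbouring and low doses, and a rising trend in 10 to 10. With no low-count filter Gbp7 lost its call at 1 µg/kg (adjusted p = 0.0781) and 3 µg/kg (adjusted p = 0.0614) in edgeR. No result reversed, and under other scalings the median log2 fold change of all genes at 30 µg/kg was at most 0.031, against 0.011 with TMM. No paired analysis was possible because the labels give no replicate numbers that join kidneys across doses. Depth limits Gbp2b in vehicle and Ifng throughout.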
